A study of Capra hircus with 6 samples.

Results

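A set of 10 transcription factor genes that mark mesenchymal cells were followed by name through the expression tables of goat fat stromal cells: TWIST1, TWIST2, PRRX1, PRRX2, SNAI1, SNAI2, ZEB1, ZEB2, TCF21 and MEOX2. Of these 10 genes, 9 had a row among the 16262 gene symbols of the tables and all 9 passed the filter on low values, so they stood among 10750 genes tested. TCF21 was not analysed here. The cells were Capra hircus adipose mesenchymal stem cells, the stromal precursors of fat, and every library is labelled as under adipogenic differentiation. Control libraries (n = 3) are labelled wild type (WT), and TAZ libraries (n = 3) carry the label overexpressing TAZ, the Hippo pathway coactivator encoded by WWTR1. The sources used here do not give the vector, its promoter, the number of clones or the age of the donor animals. A cytokine, TNF-α, is named in the series title and in no sample label. The question of the study was what TAZ does to the formation of fat cells.

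These factors belong to families that set and keep the mesenchymal state. TWIST1, TWIST2 and TCF21 are basic helix-loop-helix (bHLH) proteins that pair with E proteins to bind E-box motifs. SNAI1, SNAI2, ZEB1 and ZEB2 are zinc finger repressors best known for silencing epithelial genes such as CDH1 during epithelial to mesenchymal transition. PRRX1 and PRRX2 are paired-type homeobox factors of limb, face and connective tissue mesenchyme, and MEOX2 is a homeobox factor of somites and blood vessel walls. In fat tissue several of these factors are known from the stromal cells.

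Values are FPKM, fragments scaled to the gene length in kilobases and to the total of the library, given as mean ± SD with n = 3 libraries in each group. Log2 fold changes are TAZ minus control of log2(FPKM + 1), a scale that compresses low values, and a gene is said to rise or fall where limma's adjusted p was under 0.05. Library totals, recovered from the steps between low values, ran from 16935698 to 18852822 fragments when the smallest step is taken as 0.5 of a fragment. The analysed factors had 261 to 11641.5 fragments in a library. The WWTR1 level was 30.2, 29.9 and 35.9 FPKM in the controls and 84.6, 118.1 and 84.2 FPKM with TAZ, which matches the labels but cannot separate the introduced transcript from the cell's own. Nothing in the labels says that replicates were separate cultures, so the p-values rest on a spread between libraries that may be only technical.

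The factors moved in both directions when TAZ was overexpressed. MEOX2, ZEB2 and SNAI1 rose, SNAI2, PRRX2, PRRX1 and TWIST1 fell, and TWIST2 and ZEB1 did not pass the test. This is 7 of 9 called, where 37.9% of all tested genes were called (15.7% higher and 22.1% lower with TAZ). The groups did not overlap for 7 of the 9 factors, against 48.4% of all tested genes. The median log2 fold change of the 9 was -0.12 against -0.05 over all tested genes, and the median size of the change without its sign was 0.47 against 0.20. With median-ratio scaling between libraries, calls over all genes turned from 41.6% higher to 52.4% higher, and the same 7 factors passed in the same directions. Summed over the 9 factors the level was 622.3, 663.1 and 603.3 FPKM in the controls and 510.8, 472.4 and 553.4 FPKM in the TAZ libraries. PRRX2, SNAI2, PRRX1 and TWIST2, the 4 most abundant factors, make up most of this sum.

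**Figure D1:**
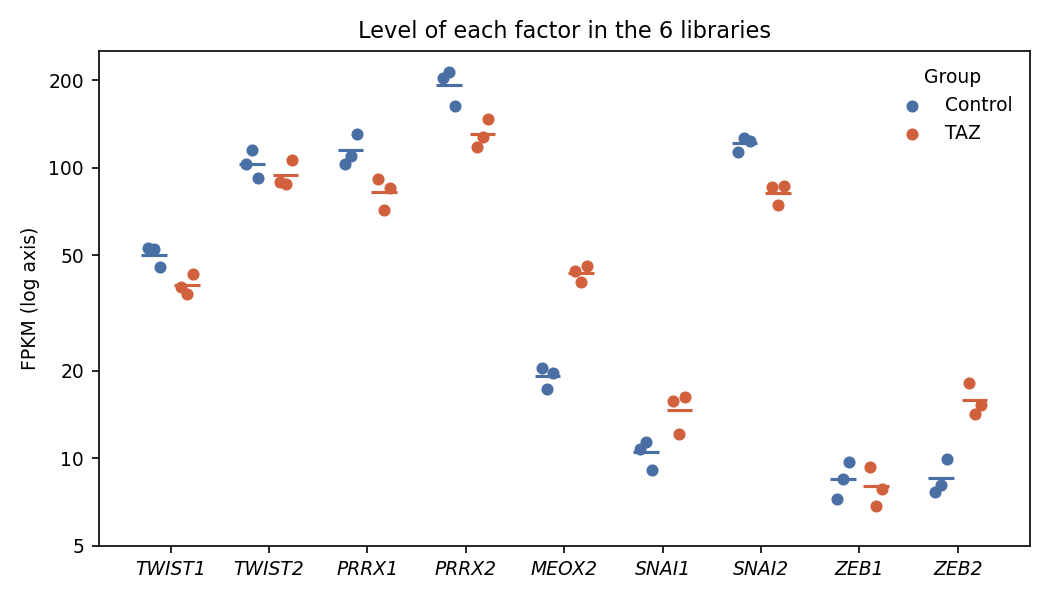
FPKM of the 9 factors (log axis) in each of the 3 control and 3 TAZ libraries, with a line at each group mean. MEOX2 and ZEB2 lie higher in all TAZ libraries, SNAI2, PRRX1 and PRRX2 lie lower, and the points of TWIST2 and of ZEB1 overlap between groups.

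Among the bHLH factors, TWIST1 was slightly lower with TAZ. Control replicates 1 to 3 had 52.8, 52.6 and 45.4 FPKM in that order, and TAZ replicates 1 to 3 had 39.0, 36.9 and 43.0 FPKM, the order kept below. The highest TAZ library lay just under the lowest control, with 50.3 ± 4.19 FPKM in the controls and 39.6 ± 3.12 FPKM with TAZ (log2 change -0.33 with SE 0.093, limma adjusted p = 0.0126). The call was lost without TAZ replicate 2 (log2 fold change -0.29, adjusted p = 0.0549). TWIST2, its close paralog, was at 103.1, 114.9 and 92.0 FPKM in the controls and at 89.6, 88.1 and 106.3 FPKM in the TAZ libraries. These ranges overlapped, and the difference did not pass (log2 fold change -0.12, 95% interval -0.35 to 0.10, limma adjusted p = 0.362). The interval holds no change as well as a fall of the size seen for TWIST1.

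Both paired-type homeobox factors fell. PRRX1, a marker of mesenchymal progenitors in several connective tissues, went from 103.3, 110.2 and 130.8 FPKM to 91.5, 71.4 and 85.1 FPKM, to 0.72 times the control mean (log2 change -0.47 with SE 0.11, limma adjusted p = 0.00467). PRRX2 was the most abundant of the 9 in both groups. It went from 203.5, 213.1 and 162.7 FPKM to 117.7, 128.1 and 147.2 FPKM, to 0.678 times the control mean (log2 change -0.55 with SE 0.11, limma adjusted p = 0.00185). The groups overlapped for neither gene. Within the groups the pair ran in opposite directions: control replicate 3 had the highest PRRX1 and the lowest PRRX2 of the controls, and TAZ replicate 1 did so among the TAZ libraries.

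Those 2 libraries also differed from the others of their group by gene length. The lengths recovered from the tables were 5144 bases for PRRX1 and 1319 bases for PRRX2. Genes under 2000 bases (3084 tested) had a median deviation from the group mean of -0.065 in control replicate 3 and -0.058 in TAZ replicate 1 on the log2 scale. Genes over 5000 bases (2203 tested) had 0.097 and 0.089. Control replicate 2 (0.061 for the short and -0.088 for the long genes) and TAZ replicate 3 (0.059 and -0.068) leaned the other way. Between the groups the median log2 fold change was -0.13 for genes under 2000 bases, -0.035 from 2000 to 5000 bases and 0.012 over 5000 bases. With the length trend of each library removed, an alternative chosen after the data were seen, the log2 fold change was -0.47 for PRRX1 (limma adjusted p = 0.0026) and -0.42 for PRRX2 (adjusted p = 0.00283). TWIST2, with a recovered length of 1442 bases, was then at -0.004 (adjusted p = 0.972), and the other 6 factors stayed on their side of the threshold.

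MEOX2 changed most of the 9 factors. It had 20.5, 17.3 and 19.6 FPKM in the controls and 44.1, 40.4 and 46.1 FPKM in the TAZ libraries. Every TAZ library stood far above every control, at 19.2 ± 1.65 against 43.5 ± 2.89 FPKM, 2.27 times as high (log2 change 1.14 with SE 0.093, limma adjusted p = 6.25e-07). It was the 1 factor of the 9 that changed at least 2-fold on the log2(FPKM + 1) scale, as did 4.52% of all tested genes. Its level moved from above 68.6% to above 84.9% of the tested genes. The 5 named genes (LOC symbols left out) whose log2 values followed MEOX2 most closely over the 6 libraries were GRB10, LUZP2, MCCC1, MEDAG and CHI3L1, with Pearson's r from 0.9977 to 0.9997. GRB10 encodes an adaptor that binds the insulin receptor, and MEDAG is a gene known for promoting adipogenesis in mesenchymal cells. With 6 libraries in 2 groups, 666 of 9999 genes reached an r of 0.95 or more, so many genes share this step between the groups. A correlation does not measure the size of a change: GRB10 went from 9.61 ± 0.215 to 12.1 ± 0.257 FPKM, only 1.26 times as high. MEDAG went from 49.9 ± 1.54 to 78.7 ± 1.81 FPKM, and CHI3L1, a secreted chitinase-like protein gene, from 109.2 ± 15.9 to 283.3 ± 13.9 FPKM.

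The Snail genes moved against each other. SNAI1 was low, at 10.8, 11.4 and 9.13 FPKM in the controls and 15.7, 12.1 and 16.2 FPKM in the TAZ libraries. TAZ replicate 2 lay close above the highest control, and the rise to 1.4 times the control mean passed (log2 change 0.45 with SE 0.12, limma adjusted p = 0.0103). The call was kept only narrowly with no filter (limma adjusted p = 0.0497) and without TAZ replicate 3 (0.045). SNAI2, also called Slug and the abundant member of the pair, was at 113.4, 127.0 and 124.0 FPKM in the controls and at 85.7, 74.4 and 86.6 FPKM in the TAZ libraries. The groups were well apart, at 121.5 ± 7.17 against 82.2 ± 6.80 FPKM (log2 change -0.56 with SE 0.088, limma adjusted p = 0.000272). SNAI2 remained the higher of the pair in every library, from 5.34 to 6.13 times SNAI1 with TAZ and from 10.5 to 13.6 times in the controls.

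The ZEB genes started level and came apart. ZEB2 rose from 7.68, 8.12 and 9.94 FPKM to 18.2, 14.2 and 15.2 FPKM, 1.85 times as high with no overlap (log2 change 0.82 with SE 0.12, limma adjusted p = 0.000111). ZEB1 was at 7.22, 8.45 and 9.69 FPKM in the controls and at 9.36, 6.85 and 7.82 FPKM in the TAZ libraries. These ranges overlapped almost fully (log2 fold change -0.07, 95% interval -0.34 to 0.20, limma adjusted p = 0.693), and the sign turned to 0.02 without control replicate 3 or without TAZ replicate 2. The ZEB1 interval lies below the 0.57 lower bound of the ZEB2 interval.

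**Figure D2:**
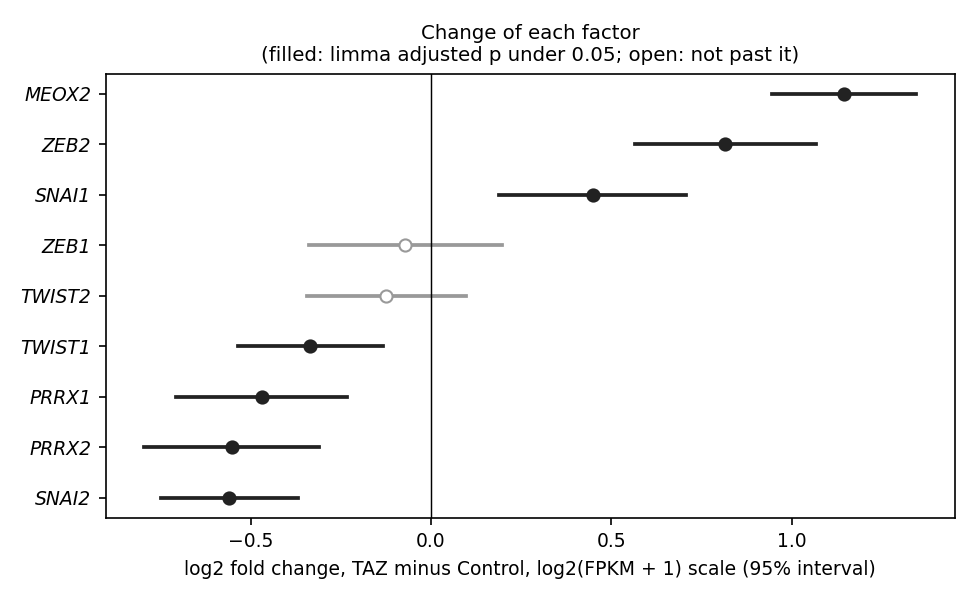
Log2 fold change of the 9 factors, TAZ minus control, on the log2(FPKM + 1) scale, with 95% intervals from limma; filled points passed at an adjusted p under 0.05. MEOX2, ZEB2 and SNAI1 lie to the right of 0, SNAI2, PRRX2, PRRX1 and TWIST1 to the left, and the intervals of ZEB1 and TWIST2 cross 0.

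Because paralogs are read side by side here, the balance within each pair was compared library by library. With 3 libraries against 3, an exact two-sided permutation test cannot go below p = 0.1, so none of the 4 ratios could pass. ZEB1 made up 48.5%, 51% and 49.3% of the summed FPKM of the ZEB pair in the controls and 34%, 32.5% and 34% in the TAZ libraries. The log2 ratio of ZEB1 to ZEB2 went from -0.02 ± 0.066 to -0.91 ± 0.042 (SD, n = 3 each), at the smallest exact permutation p of 0.1 (Benjamini-Hochberg 0.133 over the 4 ratios). SNAI1 made up 8.72%, 8.27% and 6.86% of the Snail pair in the controls and 15.5%, 14% and 15.8% in the TAZ libraries. Its log2 ratio to SNAI2 was 1.01 higher with TAZ, again with no overlap and an exact permutation p of 0.1. The TWIST1 share was 32.8% ± 1.26 against 29.5% ± 0.737 (SD, n = 3 each), a log2 ratio lower by a small margin (-0.21, exact permutation p = 0.1). The PRRX1 share was 37.4% ± 6.18 against 38.7% ± 4.36 and overlapped widely (log2 ratio difference 0.083, exact permutation p = 0.6). That difference turned to -0.03 when control replicate 1 was left out, to -0.02 when control replicate 2 was and to -0.07 when TAZ replicate 1 was. The sources used here do not say how reads shared between paralogs were counted.

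**Figure D3:**
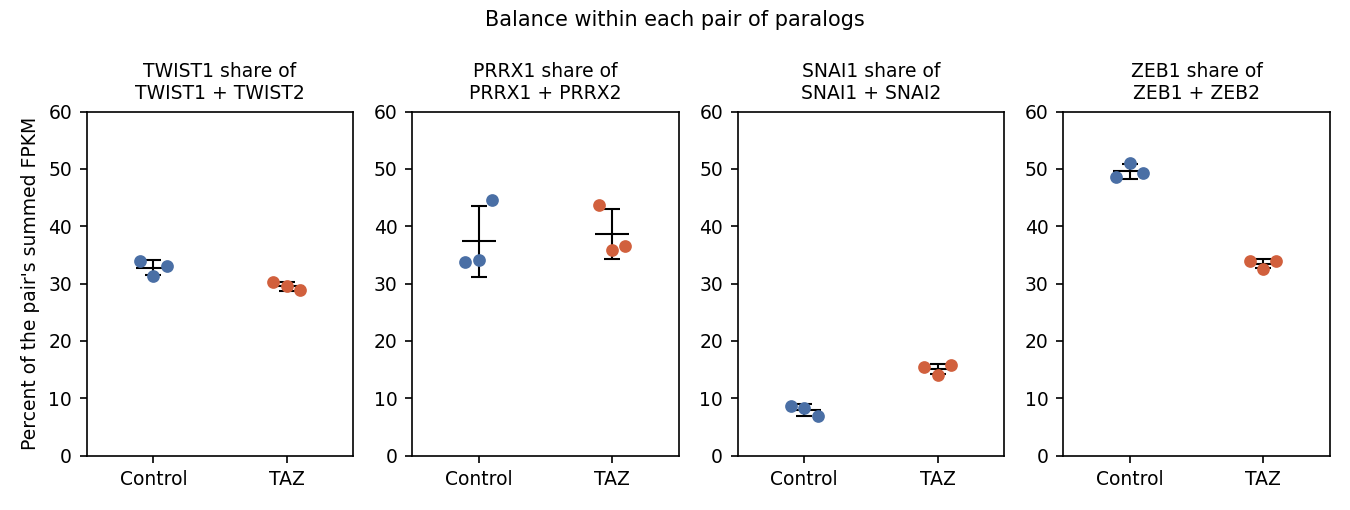
Share of the first-named gene in the summed FPKM of each pair of paralogs, in percent from 0, with 1 point per library and mean ± SD in black. The ZEB1 share drops from 49.6% to 33.5% and the SNAI1 share rises from 7.95% to 15.1%, while the PRRX1 share overlaps between the groups.

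Since FPKM is scaled to gene length, the levels were set in order. The scaling left a length trend that differed between libraries, so the order of short against long genes is approximate. PRRX2, for example, was 1.97, 1.93 and 1.24 times PRRX1 in control replicates 1 to 3. In the controls PRRX2 was highest, followed by SNAI2, PRRX1 and TWIST2, whose ranges overlapped from neighbour to neighbour. TWIST1 and then MEOX2 followed, each apart from its neighbours. SNAI1, ZEB2 and ZEB1 were lowest, at 10.5 ± 1.20, 8.58 ± 1.20 and 8.45 ± 1.23 FPKM, and did not separate. In the TAZ libraries PRRX2 was still highest and apart, the PRRX1 range overlapped those of TWIST2 and SNAI2, which were apart from each other, and MEOX2 now stood beside TWIST1 with overlapping ranges. ZEB2 and SNAI1 overlapped at 15.9 ± 2.05 and 14.7 ± 2.23 FPKM, and ZEB1 was alone at the bottom. PRRX2, SNAI2, PRRX1 and TWIST2 lay above more than 90% of the tested genes in both groups, from 92% to 96.7%.

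TWIST1 and TWIST2 can pair with E proteins to bind DNA. Of the 3 E protein genes 2 fell, where 22.1% of all tested genes fell. What this means for DNA binding by the factors was not tested. TCF3 was at 11.8, 11.8 and 11.7 FPKM in the controls and at 8.16, 7.99 and 7.72 FPKM in the TAZ libraries (log2 change -0.51 with SE 0.087, limma adjusted p = 0.000481). The controls were nearly equal, and every TAZ library was lower. TCF4 (the E protein gene, not the Wnt effector TCF7L2) went from 15.1 ± 1.37 to 12.0 ± 1.59 FPKM (log2 fold change -0.31, limma adjusted p = 0.036). That call was lost with no filter (adjusted p = 0.0846), with median-ratio scaling (0.0683), with rescaling without the top 50 genes (0.0973), and without control replicate 2 (0.0608), control replicate 3 (0.0923), TAZ replicate 2 (0.153) or TAZ replicate 3 (0.0787). TCF12 did not pass, at 21.4 ± 3.63 against 19.7 ± 2.55 FPKM.

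Of 11 relatives of the factors, 9 had a row and 4 were tested, of which 1 rose and 1 fell. Over all tested genes 15.7% rose and 22.1% fell. MSC, or musculin, a bHLH repressor closely related to TCF21, rose from 7.26, 6.79 and 6.22 FPKM to 19.7, 22.0 and 22.6 FPKM (log2 change 1.53 with SE 0.096, limma adjusted p = 4.34e-08). Its mean was 3.17 times the control mean, where MEOX2 had 2.27 times. The bHLH factor HAND2 fell, with 13.8 ± 1.38 against 10.5 ± 0.770 FPKM. The HAND2 call was lost without control replicate 2 (limma adjusted p = 0.0602) or TAZ replicate 1 (0.0535), and 2 relatives rose without TAZ replicate 2. TCF15, a bHLH factor of early somites, lay below the filter and was chosen after its values were seen. It stood at 0.0676, 0.0233 and 0.0228 FPKM in the controls and at 0.439, 0.564 and 0.534 FPKM in the TAZ libraries (limma adjusted p = 0.000168 with no filter). These values rest on 2.5 fragments summed over the controls and 35.5 over the TAZ libraries. After such a choice the p-value is no independent support. MEOX1, the paralog of MEOX2, did not pass at 1.77 ± 0.190 against 2.37 ± 0.486 FPKM.

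Of 17 corepressors that Snail, ZEB or TWIST proteins recruit, 0 rose, 6 fell and 11 did not pass. The share called was near the 37.9% over all tested genes, where 15.7% rose and 22.1% fell. KDM1A, the histone demethylase that binds SNAI1, was at 39.8 ± 1.67 against 31.0 ± 1.39 FPKM (log2 change -0.35 with SE 0.082, limma adjusted p = 0.0046). HDAC2, a histone deacetylase gene, was at 0.771 times, EZH2, the Polycomb methyltransferase gene, at 0.822 times and CTBP2, a binding partner of ZEB proteins, at 0.814 times the control mean. The falls numbered 2 with median-ratio scaling, 3 with rescaling without the top 50 genes, 3 with the replicate block, 2 without control replicate 1, 2 without TAZ replicate 1 and 3 without TAZ replicate 3. The EZH2 call was lost without control replicate 1 or 2 or TAZ replicate 1 or 3 (limma adjusted p up to 0.113), and the CTBP2 call without control replicate 1 or any 1 of the TAZ libraries (up to 0.0973). Both were also lost with either scaling and with the replicate block. Rises appeared in 4 alternatives, 1 with either scaling or without control replicate 1, and 3 with the length trend removed.

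The 12 regulators of protein turnover showed 2 rises and 2 falls, with 8 not past the test, a share near the 37.9% of all tested genes. FBXL14, an F-box gene whose product marks Snail and TWIST proteins for degradation, rose from 7.19 ± 0.185 to 9.49 ± 0.749 FPKM (log2 change 0.36 with SE 0.094, limma adjusted p = 0.00955). PSMD14, a proteasomal deubiquitinase gene, was 1.19 times as high, the ubiquitin ligase gene SIAH1 was at 0.691 times and USP27X, a deubiquitinase of SNAI1, at 0.654 times the control mean. The PSMD14 call was lost when control replicate 1 or 2 or any 1 of the TAZ libraries was left out (limma adjusted p up to 0.155), with the replicate block (0.111) and with no mean-variance trend (0.0515). The SIAH1 call was lost with no filter (0.0615) and when control replicate 2 (0.106) or TAZ replicate 2 (0.112) was left out. The USP27X call was lost without TAZ replicate 2 (0.108) or TAZ replicate 3 (0.0523), and the gene dropped below the filter when a control was left out. USP27X had passed the filter only through the controls, with every TAZ library under 1 FPKM, so its place in the count carries no weight. These are mRNA levels, and protein amounts were not measured.

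Among 11 tested genes of upstream inducers, 2 rose and 3 fell, where 15.7% of all tested genes rose and 22.1% fell. Both TGFB3 and TGFB1, ligands of the TGF-beta pathway, fell: TGFB3 had 4.87 ± 1.19 against 2.33 ± 0.245 FPKM, and TGFB1 had 39.1 ± 3.69 against 26.5 ± 2.86 FPKM. SMAD3, a signal transducer of that pathway, fell from 9.40 ± 0.598 to 5.82 ± 0.435 FPKM (log2 change -0.61 with SE 0.097, limma adjusted p = 0.000274). HIF1A, the hypoxia factor, rose from 61.9 ± 9.67 to 90.1 ± 11.3 FPKM. The second rise was TGFBR2, a TGF-beta receptor gene named to complete the count, at 24.6 ± 3.43 against 32.6 ± 2.67 FPKM. Without control replicate 2 only 1 rise was left, and with the length trend removed there were 4.

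**Figure D4:**
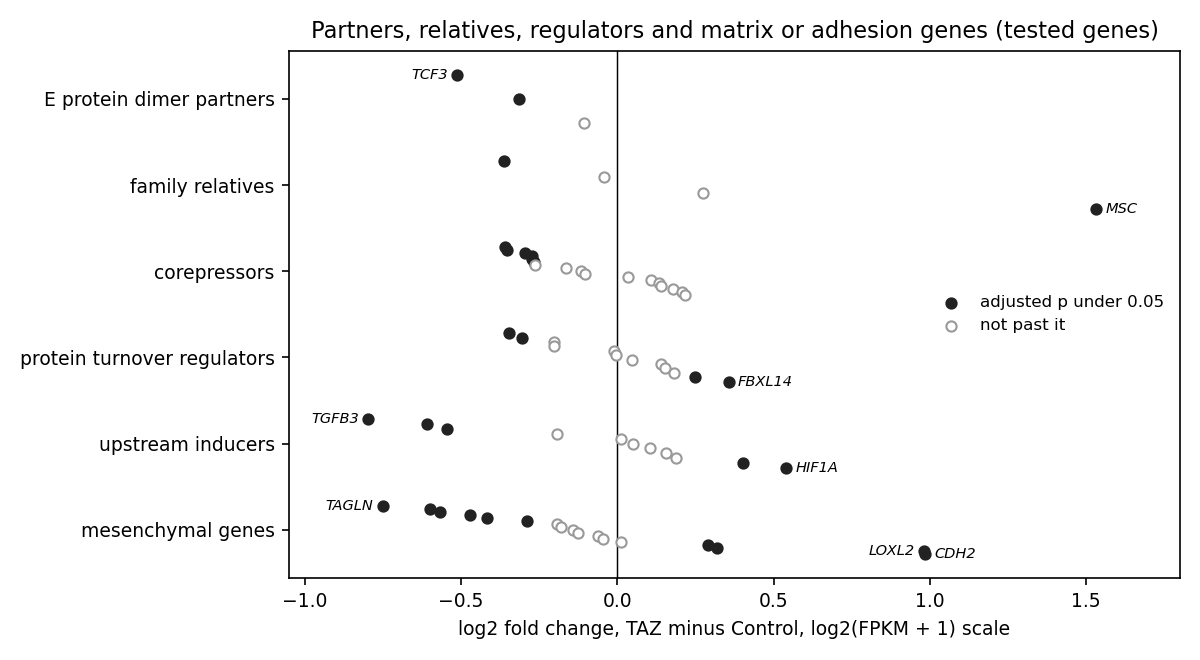
Log2 fold change, TAZ minus control, of each tested gene in 6 lists around the factors; filled points passed at a limma adjusted p under 0.05. MSC lies farthest right at 1.53, CDH2 and LOXL2 lie near 1, and each list but that of the E proteins and that of the corepressors holds filled points on both sides of 0.

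The adhesion and matrix genes that go with a mesenchymal state also went both ways. Of 17 listed genes, all tested, 4 rose and 6 fell, and 7 did not pass (median log2 fold change -0.14), beside 15.7% higher and 22.1% lower over all tested genes. CDH2, which encodes N-cadherin, rose from 9.20, 7.52 and 9.56 FPKM to 19.6, 17.3 and 17.9 FPKM (log2 change 0.99 with SE 0.10, limma adjusted p = 7.85e-06). LOXL2, a lysyl oxidase gene, rose from 152.5 ± 20.6 to 300.1 ± 7.50 FPKM. TGFBI, a TGF-beta induced matrix protein gene, fell from 1948 ± 73.4 to 1285 ± 35.8 FPKM. TAGLN, an actin-binding protein gene of contractile cells, had 945.3 ± 158.4 FPKM in the controls and 557.8 ± 54.5 FPKM with TAZ. With no filter on low genes 2 rose in place of 4.

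Epithelial genes, the classical targets of Snail and ZEB repression, were close to absent. Of 25 listed, 24 had a row and 1, JUP, passed the filter and did not pass the test, while CLDN7 and MAL2 were listed at 0 in every library. The summed level of the list was 10.2 to 11.7 FPKM in the controls and 10.4 to 11.1 FPKM in the TAZ libraries, of which JUP made up 7.97 ± 0.573 and 7.33 ± 0.156 FPKM. CDH1, which encodes E-cadherin and was looked at after its values were seen, was at 0.062, 0.122 and 0.207 FPKM in the controls and at 0, 0.0115 and 0.0176 FPKM in the TAZ libraries (limma adjusted p = 0.0388 with no filter). OCLN, the tight junction gene for occludin and likewise chosen late, went the other way at 0.0297 ± 0.0132 against 0.188 ± 0.0628 FPKM (limma adjusted p = 0.00989 with no filter). Both genes stayed far below 1 FPKM. Summed over the libraries of each group, CDH1 had 31 against 2.5 fragments and OCLN 5 against 33. As both were chosen after their values were seen, their p-values are no independent support.

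The markers of the labelled cell type were present, with all 9 adipose stromal genes tested, 4 of them higher and 2 lower (1 without TAZ replicate 2). The rises numbered 3 to 4 with a library left out and 3 to 5 in the other alternatives. Beside this and the marker counts below, 15.7% of all tested genes were higher and 22.1% lower. The pericyte receptor gene PDGFRB, which stromal cells also express, was 1.72 times as high, ENG fell to 0.619 times, and CD44 and DCN were 1.47 and 1.53 times as high. Endothelial genes summed to 0.336 to 0.533 FPKM in the controls and 0.137 to 0.316 with TAZ (KDR at 0), and skeletal muscle genes to 0.417 to 0.483 and 0.269 to 0.392 FPKM. Of 6 leukocyte genes with a row, 2 were tested, of which 1 rose and 1 fell: CD14 went from 9.58 ± 1.38 to 24.2 ± 0.421 FPKM and CD68 from 4.53 ± 0.437 to 2.86 ± 0.333 FPKM, with PTPRC, the defining leukocyte marker, at 0 in every library. With no filter 3 leukocyte genes fell, CD3E (0.598 to 0.0769 FPKM) and CD79A (0.215 to 0.0142 FPKM) beside CD68, and with a mean of 5 FPKM 0 fell, CD68 not being tested there. These 2 further falls rest on few fragments. Summed over the 3 libraries of each group, CD3E had 42 against 5.5 and CD79A 14 against 1. The list summed to 13.6 to 16.7 and 26.7 to 27.8 FPKM. The 6 pericyte and smooth muscle genes summed to 386 to 610.1 and 213.2 to 283.8 FPKM, most of it ACTA2, which fell to 0.441 times the control mean, while CNN1 was 1.36 times as high and RGS5 had group means under 0.01 FPKM. Of 8 adipocyte genes 6 lay below the filter, PPARG, LPL and ADIPOQ among them. In control and TAZ means, PPARG was at 0.058 and 0.0834 FPKM, ADIPOQ at 0.119 and 0.123 FPKM and LPL at 0 and 0.00239 FPKM. These markers of fat cells were thus close to absent in libraries labelled as under adipogenic differentiation. LIPE, low at 1.01 against 2.13 FPKM, rose to 2.1 times, and CIDEC, the most abundant, did not pass at 18.3 ± 1.31 against 17.8 ± 1.29 FPKM (limma adjusted p = 0.789). The means of PLIN1 and CD36, below the filter, were at 0.625 and 0.334 times those of the controls (limma adjusted p = 0.209 and 0.103 with no filter). The part of these marker changes in the results on the 9 factors was not tested. In bulk RNA, fewer cells of a type and less RNA per cell cannot be told apart.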

How the data were processed

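The submitters' processing notes name fastp, HISAT2 and HTSeq, with no versions. The sources used here give neither genome build nor strand setting, and coordinates are left out. The authors deposited FPKM values, per the file headers, in 1 table per group with 16285 rows, of which 23 had a date for a symbol and were left out. All 16262 other symbols are in the RefSeq table of assembly ARS1.2, used for names.

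The filter asked for at least 1 FPKM in 3 or more of the 6 libraries and left 10750 genes. Their log2(FPKM + 1) values were fitted with limma 3.58.1 in R 4.3.3 (moderated two-sided test, mean-variance trend in eBayes), p-values were adjusted by Benjamini-Hochberg across these genes, and 0.05 was the threshold. Both the fit and the recovery below were tested on simulated data. The simulated noise for the fit was independent between libraries. It could therefore not test the calls under the deviations that libraries share here. Samples were grouped by their titles. Paralog ratios used exact permutation tests. Fragment numbers and lengths were recovered from the steps of FPKM values for 99.99% of rows above 0, as multiples of 0.5 within 0.001 (more for deep genes). If the smallest step is 1 fragment, fragment numbers double. Of 469 genes spanning under 1500 bases, 52.2% had a recovered length equal to the RefSeq span. Chi-square per degree of freedom between libraries was 9.517 to 14.88 within groups, so none were duplicates.

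From each list the called genes with the lowest adjusted p were named, at most 4, with the leading one in the less frequent direction; for the member with the lowest adjusted p, the 5 genes most correlated with it. Other named genes are marked in the text. The factors and the 13 other lists were chosen with earlier results of these data known. A gene of the lists is not reported here.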

Additional observations from a re-analysis of the deposited data

How the results depend on the processing

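Across 17 alternatives (pseudocounts of 0.1 and 0.5, no filter, a mean of 5 FPKM, median-ratio scaling, rescaling without the top 50 genes, no trend, robust empirical Bayes, the replicate block, voom on recovered fragments, length trend removed, each library left out), 150 of 153 values of the 9 factors kept their direction and side of the threshold. The exceptions were TWIST1 (log2 fold change -0.41 to -0.29 with a library left out, adjusted p 0.0036 to 0.0549) and ZEB1 (-0.176 to 0.024, reversed at 0.022 and 0.024). With no filter, a mean of 5 FPKM, no trend, robust empirical Bayes or the block, the log2 fold change cannot differ from the main fit. There only the side of the threshold could change. Leaving out a library moved the PRRX1 to PRRX2 log2 ratio from -0.07 to 0.30, reversed in 3 cases at -0.032, -0.018 and -0.067. Causes were not tested. The deviations of same-numbered libraries from their group means correlated at -0.436, -0.112 and -0.403. Deviations within a group depend on each other, so these values cannot decide whether replicate numbers mark pairs. Libraries of other numbers deviated together, control 3 with TAZ 1 at 0.691, control 1 with TAZ 2 at 0.534 and control 2 with TAZ 3 at 0.552, which neither fit models. No label says what they share, so no such pairing was fitted. The replicate block gave 3512 genes called in place of 4074 and changed no call of the 9 factors. Its SEs ran only from 0.121 to 0.133 over these factors. For MEOX2 the SE grew from 0.093 to 0.125, yet limma's adjusted p went from 6.25e-07 to 1.74e-18. The unchanged calls are therefore no check on the spread of each gene. Calls over all genes ran from 3044 to 4266 with a library left out and from 3049 to 4175 otherwise, and the share of higher calls was 52.7% with the length trend removed. Each value of the 9 factors rests on 261 fragments or more, but for genes under 1 FPKM the log2(FPKM + 1) scale compresses changes.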
